A study of Mus musculus with 16 samples.

Results

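The 8 libraries described here, of 16 in the series, came from intact mouse neural stem and progenitor cells, 4 kept proliferating and 4 taken through 3 days of differentiation. They were chosen by their labels alone. Intact cells were Kat7+/+ and carried a single copy of a Cre transgene under Nestin regulatory sequences, so Cre was present in these controls as well. The other 8 libraries came from null cells, which were Kat7 lox/lox with the same transgene, 4 proliferating and 4 differentiating. All cells had been taken from cortex together with ganglionic eminence of fetuses at E14.5 (the embryonic day), and expanded as floating neurospheres, the clonal aggregates that neural stem cells form in medium with growth factors. Spheres were replated at 20000 cells/cm2 at each passage, and proliferating cells were sampled after 3 passages and 3 days. Differentiating cells spent 3 days in a cortical neuron medium on a laminin coat. Polyadenylated RNA was read as 75-base pairs of reads. The design text gives 4 fetuses of each genotype, and the labels do not say whether same-numbered proliferating and differentiating libraries came from 1 fetus, so p-values measure the spread between these libraries only. The comparison asks which gene families rise and which fall when control cells leave the cell cycle and differentiate.

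Neural stem cells of the fetal forebrain divide in response to growth factors that act through receptor tyrosine kinases and the RAS to ERK kinase cascade, while Notch and SOX factors hold back differentiation. Loss of these signals leads to exit from the cell cycle and to the formation of neurons, oligodendrocytes and astrocytes. Cells of the cortex give rise mainly to glutamatergic neurons and cells of the ganglionic eminences to GABAergic neurons, and cultures of both hold precursors of each.

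Library totals were 18694992 to 22597902 counts in the proliferating and 23891093 to 34343777 in the differentiating libraries, with 16769 to 18774 genes detected. A single principal component held 84.1% of the variance of the 8 libraries and separated the conditions. Proliferating library 1 stood apart on it, at -42.8 against -104 to -109 for the other 3, and the differentiating libraries lay at 71.0 to 110. The second component held 7.40% and spread the differentiating libraries from 57.2 (library 1) to -50.6 (library 4). Proliferating libraries 2 and 3 were the closest pair, with a chi-square of 1.84 per degree of freedom over 13575 genes, where sampling noise alone gives about 1 and the other pairs of that group gave 6.12 to 48.9. They were kept as separate samples. Summed as 1 library they left 5261 genes higher and 5282 lower. Results that rest on proliferating library 1 or differentiating library 1 are given with and without it.

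Kat7 (chromosome 11, 95271853 to 95310246), which encodes the histone acetyltransferase KAT7, had 132, 145, 139.8 and 142 CPM (counts scaled to a common library total, always in the order of libraries 1 to 4) in the proliferating and 107, 101, 103 and 100.2 CPM in the differentiating libraries. Every intact library expressed it, and the groups did not overlap. Its level fell by 0.44 ± 0.13 (SE) on the log2 scale (edgeR adjusted p = 0.0065), a change of less than 2-fold.

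Of 15177 genes tested, 5566 (36.7%) rose and 5360 (35.3%) fell at an adjusted p under 0.05, and the median log2 fold change was 0.02. Tested against a change of 2-fold, which is what more than 2-fold stands for throughout and which a fold estimate just past 2 need not pass, 1985 genes (13.1%) rose and 1362 (8.97%) fell. These percentages are the background for the counts of each gene list. A gene nearly without counts in the proliferating libraries was tested because of its level in another group, and could hardly be called lower. Leaving out both libraries numbered 1 gave 5668 higher and 5525 lower. The 1020 tested genes of 52 lists are described by the function of their members. Cells of several types share a library, so fewer cells of a type and less RNA per cell cannot be told apart in any of these values. The plot of list members by fold change shows the range within each list.

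**Figure D1:**
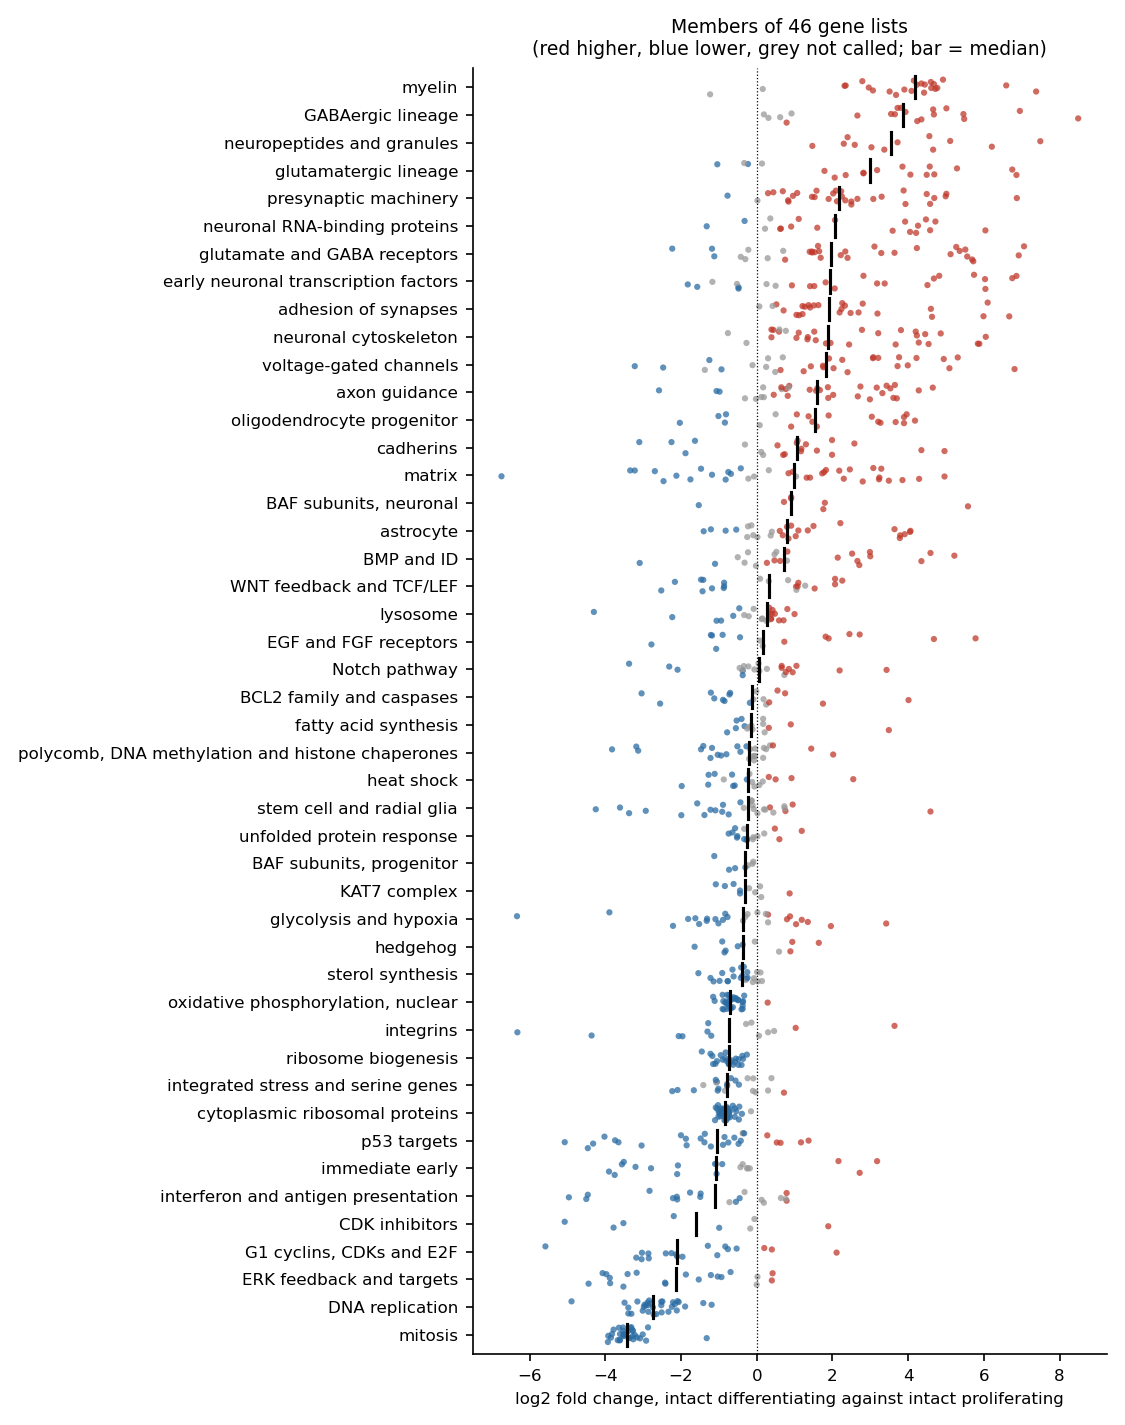
Log2 fold change of each tested member of 46 gene lists, intact differentiating against intact proliferating libraries (4 each), with lists ordered by their median (black bar) and each point 1 gene, red where higher, blue where lower and grey where not called at an edgeR adjusted p under 0.05. The median runs from -3.43 for mitosis to 4.19 for myelin.

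The machinery of cell division fell as a block. All 32 genes of the mitosis list and all 32 of the DNA replication list fell, every one by more than 2-fold, with median log2 fold changes of -3.43 and -2.73. No member of either list overlapped between the groups, as was the case for 9537 (62.8%) of the 15177 genes tested. Ccna2, encoding cyclin A2, had 405, 501, 509 and 501 CPM in the proliferating and 43.9, 36.8, 26.8 and 25.5 CPM in the differentiating libraries, and Cdk1, the kinase that starts mitosis, had 276, 322, 323 and 341 and 26.4, 21.1, 17.9 and 17.9 CPM. In both genes the lowest proliferating library lay several fold above the highest differentiating one. Cdk1 fell by 3.92 ± 0.13 on the log2 scale (edgeR adjusted p = 6.6e-12), as did Plk1 (-3.93), another mitotic kinase, Ccna2 (-3.85) and Mki67 (-3.47), a marker of cycling cells. The smallest change of the list was that of Pttg1, the separase inhibitor securin, at -1.32. Cdk1 kept 20.8 ± 4 CPM (mean ± SD, n = 4) in the differentiating libraries, so its level was low and not 0.

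Replication genes spread more widely. Mcm3, a subunit of the helicase that opens the DNA at origins, had 179, 243, 236 and 239 CPM in the proliferating and 23.3, 20.5, 20.1 and 15.7 CPM in the differentiating libraries. Tk1, the thymidine kinase of S phase, had 65.7, 82.8, 83.9 and 99.8 and 3.98, 3.09, 2.64 and 1.5 CPM. Both were lowest in differentiating library 4 and highest in proliferating libraries 2 to 4. Tk1 fell by 4.89 ± 0.26 on the log2 scale (edgeR adjusted p = 5.4e-10), the largest change of the list, and Mcm3 fell by 3.49 ± 0.16 (edgeR adjusted p = 9e-11). Rrm2 (-3.39), a subunit of the reductase that makes deoxyribonucleotides, and Mcm10 (-3.39), a factor that loads at origins, fell too. The origin-recognition subunit gene Orc6 (-1.19) and the clamp-loader subunit gene Rfc3 (-1.41) changed least.

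Promoters of these genes are shown because the members of both lists moved together. From the largest fall downwards, the first 3 genes of each list whose window held a given motif were taken. That motif was the homology region core for mitosis and an E2F motif for replication, both defined below. Every window therefore holds its motif by choice. Each line gives the 150 bases before the start of 1 gene in RefSeq's GRCm38.p6 table, 5′ to 3′ on the gene's strand, with capitals marking the motifs searched. The windows lie at chr10:69352913-69353062 (- strand) for Cdk1, chr4:118437344-118437493 (- strand) for Cdc20, chr2:164769779-164769928 (+ strand) for Ube2c, chr4:108579304-108579453 (+ strand) for Orc1, chr11:98908001-98908150 (+ strand) for Cdc6 and chr8:75109359-75109508 (+ strand) for Mcm5.
Cdk1: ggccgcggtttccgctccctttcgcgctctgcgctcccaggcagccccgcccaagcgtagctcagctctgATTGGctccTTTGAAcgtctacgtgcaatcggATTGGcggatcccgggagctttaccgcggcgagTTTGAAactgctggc
Cdc20: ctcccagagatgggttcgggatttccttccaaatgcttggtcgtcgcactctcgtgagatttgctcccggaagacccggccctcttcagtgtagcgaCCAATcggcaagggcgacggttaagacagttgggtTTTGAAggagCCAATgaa
Ube2c: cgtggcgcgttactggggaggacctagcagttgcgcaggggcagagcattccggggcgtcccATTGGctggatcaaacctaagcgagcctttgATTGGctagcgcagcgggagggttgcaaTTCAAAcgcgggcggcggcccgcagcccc
Orc1: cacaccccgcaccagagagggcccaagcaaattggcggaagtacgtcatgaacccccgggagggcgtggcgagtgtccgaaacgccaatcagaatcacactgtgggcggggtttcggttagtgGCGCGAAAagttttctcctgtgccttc
Cdc6: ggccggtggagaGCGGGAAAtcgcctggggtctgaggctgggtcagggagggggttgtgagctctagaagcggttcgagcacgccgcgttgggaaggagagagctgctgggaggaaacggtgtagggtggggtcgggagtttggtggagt
Mcm5: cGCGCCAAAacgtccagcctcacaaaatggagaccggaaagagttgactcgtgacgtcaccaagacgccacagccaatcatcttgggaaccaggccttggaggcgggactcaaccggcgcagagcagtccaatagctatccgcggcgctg
In the first 3 windows, of mitosis genes, capitals mark the cell cycle homology region core (TTTGAA or TTCGAA) and the CCAAT box, and in the other 3, of replication genes, an E2F motif (TTTCCCGC, TTTGGCGC, TTTCGCGC or TTTGCCGC), each read on both strands.

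Within 250 bases upstream of the start, 9 of 27 promoters of mitosis genes (33.3%) held the homology region core, beside 12.1% of all 14466 promoters, and 20 of 27 (74.1%) held CCAAT, beside 35.5%. An E2F motif stood in 7 of 30 promoters of replication genes (23.3%), beside 3.18% of all. Of each list, 26 of 32 genes matched a promoter, some of them with more than 1 start. On the gene's own strand alone the shares were 25.9% for the core, 55.6% for CCAAT and 10% for E2F, beside 7.31%, 20.2% and 1.62% of all promoters. A match is a description of these letters and neither a bound site nor a cause. Cdk1 carried 2 copies of the core and 2 of CCAAT in its window, and Cdc20, which activates the ligase that ends mitosis, 1 copy of the core and 2 of CCAAT.

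Transcripts of the G1 step were lower too, and those of inhibitors of cyclin-dependent kinases did not move in 1 direction. Of 19 genes for G1 cyclins, their kinases and E2F factors, 16 fell and 3 rose, with a median of -2.10. Ccnd1 (Entrez 12443; chromosome 7, 144929931 to 144939831), encoding cyclin D1, which links growth factors to the cycle, had 1052, 2078, 2070.4 and 2089.7 CPM in the proliferating and 45.5, 42.4, 30.3 and 33.7 CPM in the differentiating libraries. The lowest of its group was proliferating library 1, which still lay far above every differentiating library. Ccnd1 fell by 5.58 ± 0.26 on the log2 scale (edgeR adjusted p = 1.2e-10). The transcription factor genes E2f8 (-3.18), E2f2 (-3.04) and E2f7 (-3.03) fell as well. Mycn, a proto-oncogene of neural progenitors, rose by 2.11 ± 0.52 with groups that overlapped, since the lowest differentiating library lay below proliferating library 1. Differentiating library 1 was the highest at 63.3 CPM, and the change was 1.45 without that library.

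Of 8 genes for inhibitors of these kinases, 5 fell and 1 rose. Cdkn1a (Entrez 12575; chromosome 17, 29090979 to 29100722), encoding p21, had 152, 429.7, 446 and 509 CPM in the proliferating and 14.9, 11.2, 9.32 and 10.3 CPM in the differentiating libraries. Library 1 was lowest of the proliferating group, yet far above every differentiating library. Cdkn1a fell by 5.07 ± 0.35 on the log2 scale (edgeR adjusted p = 8.4e-09). Cdkn2a (-3.52), encoding the INK4A and ARF proteins, Cdkn2c (-2.19), another INK4 gene, and Cdkn3 (-3.78), a phosphatase gene of the cell cycle, fell with it. Only Cdkn1c, encoding p57, rose, from 24.3 ± 10.6 to 89.8 ± 37.8 CPM (log2 fold change 1.89, edgeR adjusted p = 0.0001).

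Receptors for growth factors changed in both directions and the feedback genes of the ERK cascade fell. Egfr (Entrez 13649; chromosome 11, 16752203 to 16913907), the receptor of epidermal growth factor, had 407, 410.1, 413 and 461 CPM in the proliferating and 63.9, 73.3, 65.9 and 43.5 CPM in the differentiating libraries. Proliferating library 1 lay with its group in this gene. Egfr fell by 2.78 ± 0.12 on the log2 scale (edgeR adjusted p = 7.7e-11), and Fgfr1 (-1.07), Fgfr3 (-1.21) and Erbb2 (-0.90) fell too. Over the 15 tested receptors 6 fell and 7 rose. Those that rose included Met (5.78), the receptor of hepatocyte growth factor, Pdgfrb (4.68), Erbb3 (2.72), Erbb4 (2.45), Fgfr2 (1.82) and Pdgfra (1.90). Met had 118, 16.8, 26.7 and 6.65 CPM in the differentiating libraries, highest in library 1. Met, Pdgfrb and Fgfr2 came to 7.16, 5.76 and 2.64 on the log2 scale without proliferating library 1. Met came to 4.45 on the log2 scale without differentiating library 1.

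Of 20 genes that ERK signalling induces or that restrain it, 16 fell and 2 rose, with a median of -2.14. Spry4, an inhibitor of receptor tyrosine kinase signalling, had 113, 292, 294 and 296 CPM in the proliferating and 18.4, 12.4, 9.05 and 5.96 CPM in the differentiating libraries. Dusp6, an ERK phosphatase, had 91.2, 232, 231 and 213 and 24.0, 10.7, 7.07 and 3.72 CPM. Proliferating library 1 was lowest of its group and differentiating library 1 highest of its group in both, with no overlap. Spry4 fell by 4.44 ± 0.35 (edgeR adjusted p = 4.4e-08) and Dusp6 fell by 4.07 ± 0.46 (edgeR adjusted p = 1.9e-06) on the log2 scale. The ETS factor gene Etv4 (-3.88) and the early response gene Ier3 (-3.97) fell too. The 2 that rose were Errfi1 (0.42), a feedback inhibitor of EGFR, and Etv1 (0.40). Leaving out proliferating library 1 or 3 or differentiating library 2 or 4 left 1 of them called. Dusp6 and Etv4 came to -4.76 and -4.63 on the log2 scale without differentiating library 1.

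Immediate early genes, transcribed within minutes of a stimulus, followed in part. Of 20, 11 fell and 3 rose, with a median of -1.07, and without differentiating library 1, 15 fell and 1 rose with a median of -1.80. Egr1, an ERK-induced zinc finger factor, had 313, 241, 238 and 269 CPM in the proliferating and 42.2, 21.7, 15.8 and 9.92 CPM in the differentiating libraries. Klf10 (-3.90), Arc (-3.75), Egr3 (-3.51) and Egr2 (-3.20) fell with it. Npas4, a factor that neuronal activity induces, rose by 3.18 ± 0.91 but had 23.9, 5.21, 1.51 and 0.36 CPM in the differentiating libraries. Library 1 was several fold above the others and library 4 lay below the proliferating range. Without differentiating library 1 the change was 1.45 and was not called.

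**Figure D2:**
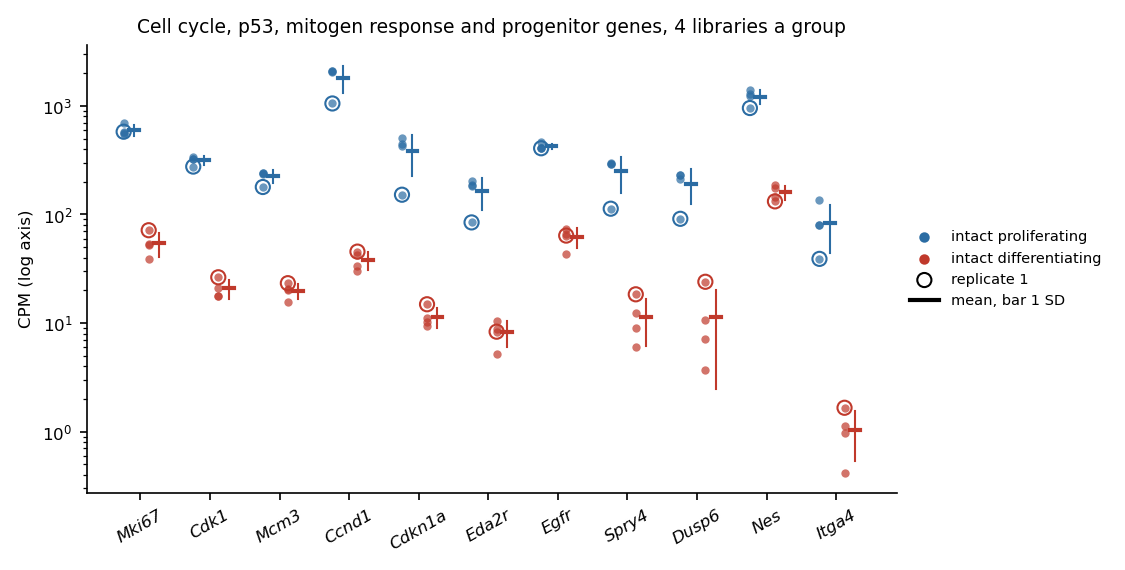
CPM on a log axis of 11 genes of the cell cycle, p53 response, mitogen response and progenitor state in the 4 proliferating (blue) and 4 differentiating (red) intact libraries, with points for libraries, a ring for replicate 1, a horizontal bar for the mean and a vertical bar for 1 SD. The groups do not overlap in any of the 11, as was the case for 9537 (62.8%) of the 15177 genes tested. Proliferating library 1 is lowest of its group in most of them, among them Ccnd1 (1052 CPM), Cdkn1a (152 CPM), Spry4 (113 CPM) and Dusp6 (91.2 CPM).

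Markers of neural stem cells and radial glia divided. Of 28 tested, 13 fell, 4 rose and 11 were not called, with a median of -0.24. Nes, the intermediate filament nestin, had 955, 1235, 1289 and 1387 CPM in the proliferating and 132, 185, 175 and 146 CPM in the differentiating libraries and fell by 2.93 ± 0.13 on the log2 scale (edgeR adjusted p = 5.2e-11). Proliferating libraries did not overlap with differentiating ones in this gene. The chromatin protein gene Hmga2 (-4.25), which marks fetal stem cells, Cd44 (-3.61), Hes1 (-3.37) and Vim (-1.99) fell with it. Other defining factors were not called, with log2 fold changes of 0.23 for Sox2, 0.02 for Sox9, -0.13 for Pax6 and -0.14 for the glutamate transporter gene Slc1a3. Sox2 kept 613 ± 201 CPM in the differentiating libraries beside 522 ± 20.7 CPM in the proliferating ones. Without proliferating library 4, 2 members of the list rose in place of 4.

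Id4, an inhibitor of bHLH factors that acts in glial and stem cells, was the marker that rose most. It had 19.1, 2.11, 2.21 and 2.75 CPM in the proliferating and 133, 175, 129 and 194 CPM in the differentiating libraries. Proliferating library 1 was several fold above the other 3, and the groups did not overlap. The log2 fold change was 4.59 ± 0.57 (edgeR adjusted p = 4.5e-06) and 6.05 without that library. Genes of the BMP pathway rose with it, 13 of 22 with 2 lower and a median of 0.71. They included the ligand genes Bmp4 (4.35), Bmp6 (5.22) and Bmp2 (2.52), the BMP antagonist gene Nog (2.99), the inhibitory SMAD genes Smad6 (2.66) and Smad7 (2.71), and Smad9 (3.00). Bmp7, another ligand, fell from 94.0 ± 22.0 to 11.1 ± 1.03 CPM (-3.09). Among the other ID genes of the list, Id2 (2.14) rose, while Id1 (0.80) and Id3 (-0.23) were not called. Bmp6 had at most 3 counts in proliferating libraries 2 to 4 together, so no fold is given without proliferating library 1. Bmp4 and Nog came to 7.14 and 3.62 on the log2 scale without proliferating library 1.

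Of 22 tested genes of the Notch pathway, which keeps progenitors from differentiating through its HES and HEY targets, 8 rose and 5 fell. Among targets, Hes1 fell by 3.37 while Hey2 rose by 2.19, and Hes5 was not called at 0.73. Among ligands, Jag1 fell by 2.09, Jag2 rose by 3.43, Dll3 rose by 1.05 and Dll1 was at 0.05. Lfng, a glycosyltransferase that modifies Notch receptors, had 252, 246, 253 and 238 CPM in the proliferating and 31.7, 54.2, 58.6 and 54.7 CPM in the differentiating libraries and fell by 2.31. Hey2 came to 3.24 on the log2 scale without proliferating library 1. Jag2 came to 2.62 on the log2 scale without differentiating library 1. Proliferating library 1 had 3.88 CPM of Hey2 and overlapped with the differentiating libraries.

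WNT feedback genes and TCF/LEF factors moved both ways, 7 of 21 higher and 9 lower. The WNT target genes Axin2 (-0.86), Nkd1 (-2.16), Lef1 (-1.47), Tcf7 (-2.52) and Znrf3 (-1.41) fell. Rnf43 (2.26), which clears WNT receptors, the secreted inhibitor genes Sfrp1 (2.07) and Dkk3 (2.07), and Tcf7l2 (1.04) rose. Rnf43 and Dkk3 came to 3.01 and 2.87 on the log2 scale without proliferating library 1. In the hedgehog pathway 6 of 11 fell and 3 rose, led by the co-receptor gene Gas1 (-1.64), and Gli2 rose by 0.94 where Gli3 fell by 0.91. Shh and Gli1 were too low to be tested.

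Targets of p53 fell. Of 28, 21 fell and 5 rose, with a median of -1.05, and 13 fell by more than 2-fold and none rose as much. Eda2r, a death receptor gene of the TNF receptor family, had 84.5, 184, 185 and 205 CPM in the proliferating and 8.33, 10.5, 5.24 and 8.84 CPM in the differentiating libraries. Again the lowest of its group was proliferating library 1. Eda2r fell by 4.32 ± 0.26 on the log2 scale (edgeR adjusted p = 2.2e-09). With it fell Gtse1 (-4.46), a cell cycle gene that binds p53, the death receptor gene Tnfrsf10b (-4.02), Phlda3 (-3.65), an AKT inhibitor, and Pmaip1 (-3.04), encoding the BH3 protein NOXA. Mdm2, encoding the ligase that degrades p53, fell by 0.48. The DNA repair genes Ddb2 (1.37), Rrm2b (0.63) and Xpc (0.53) rose, as did the growth arrest gene Gadd45a (1.17). On its list mean, proliferating library 1 stood 41.4% of the way from the other proliferating libraries to the mean of the differentiating ones.

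Death and heat shock genes moved in both directions, and most called immune genes fell. Of 18 genes of the BCL2 family and caspases, 9 fell and 5 rose, with Casp8 (-2.55) among the former and Hrk (4.01), a BH3 gene of neurons, and Bmf (1.75) among the latter. Hrk came to 3.04 on the log2 scale without differentiating library 1. Heat shock genes gave 8 lower and 4 higher of 18, among them the mitochondrial chaperonin gene Hspd1 (-1.27) and the small heat shock gene Hspb8 (2.55). Of 20 tested genes of interferon response and antigen presentation, 12 fell and 2 rose, 8 of them by more than 2-fold. Ifitm3, an antiviral membrane protein gene, had 3.73, 9.8, 8.06 and 7.52 CPM in the proliferating and 0.229, 0.186, 0.194 and 0.3 CPM in the differentiating libraries. Bst2 (-4.46), encoding tetherin, and Gbp3 (-4.50), a guanylate-binding protein gene, fell alongside.

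Genes of ribosome assembly and of protein synthesis fell by small amounts in nearly every member. All 25 genes of ribosome biogenesis fell, but only 1 by more than 2-fold (Utp20, -1.45), and the median was -0.74. Dkc1, the pseudouridine synthase of ribosomal RNA, had 85.2, 125, 123 and 128 CPM in the proliferating and 38.8, 53.3, 46.7 and 58.7 CPM in the differentiating libraries. Of 40 genes for cytoplasmic ribosomal proteins, 39 fell, none by more than 2-fold, with a median of -0.82. These genes have many processed pseudogenes, and reads may have been split with them. Rpl14 had 164, 188, 184 and 217 CPM in the proliferating and 81.3, 88.0, 102 and 83.8 CPM in the differentiating libraries and fell by 1.08 ± 0.11 (edgeR adjusted p = 7.1e-07). Each value is a share of its library, and so moves with all other genes in it.

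Energy metabolism shifted within glycolysis and fell slightly in respiration. Of 27 genes of glycolysis and hypoxia, 13 fell and 8 rose. Ldha, the lactate dehydrogenase subunit of glycolytic cells, had 485, 585, 569 and 609 CPM in the proliferating and 129, 121, 121 and 116 CPM in the differentiating libraries. It fell by 2.21 ± 0.11 on the log2 scale (edgeR adjusted p = 2.4e-10). The enzyme genes Eno1 (-1.81), Hk2 (-1.62), Tpi1 (-1.52), Pgk1 (-1.32) and Aldoa (-1.31) fell with it, as did Slc16a3 (-3.89), the lactate exporter. Their neural counterparts Eno2 (1.96), Hk1 (0.80) and Aldoc (1.35) rose. Ndrg1, which hypoxia and differentiation induce, rose by 3.42 with 124, 23.6, 20.4 and 5.78 CPM in the differentiating libraries and by 2.02 without library 1. Eno2 came to 1.37 on the log2 scale without differentiating library 1.

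Among 32 nuclear genes of oxidative phosphorylation, 31 fell and 1 rose, with a median of -0.70 and a single change above 2-fold, that of the ATP synthase subunit gene Atp5b. Atp5b had 1895, 2192, 2193 and 2223 CPM in the proliferating and 905, 962, 957 and 1009 CPM in the differentiating libraries (-1.15 ± 0.08, edgeR adjusted p = 4.8e-09). The spread within each group was narrow beside the difference. The one higher gene, Ndufa1 (0.29), was not called without proliferating library 2 or 3 or without differentiating library 4.

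Lipid genes had small median changes. Of 23 genes of sterol synthesis and uptake, 16 fell and none rose, with a median of -0.38 and 1 fall above 2-fold. Hmgcs1 (0.10), an early enzyme of the pathway, was not called. Without differentiating library 3, 1 member of the list was called higher. In fatty acid synthesis 3 of 15 rose and 5 fell, with Elovl7 (3.49), an elongase, highest, and under library size scaling or a minimum count of 50, 5 rose. Elovl7 came to 4.23 on the log2 scale without proliferating library 1.

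Of 22 genes of the integrated stress response and serine synthesis, 12 fell and 1 rose, with a median of -0.78, among them the mitochondrial one-carbon genes Mthfd2 (-2.09) and Shmt2 (-1.66). Without differentiating library 3, 2 of them rose. Genes of the unfolded protein response gave 8 lower and 3 higher of 16, none by more than 2-fold. Of 24 lysosomal genes 11 rose and 6 fell. Atp6v0d1, a subunit of the proton pump, rose, with 114, 98.6, 91.8 and 95.7 CPM in the proliferating and 198, 199, 200.3 and 204 CPM in the differentiating libraries, and the cathepsin genes Ctsh (-4.30) and Ctsz (-2.23) fell.

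Neuronal genes rose in most members of each family examined. Among 24 tested transcription factors of early neurons, 16 rose and 4 fell, with a median of 1.94. Neurod6 (Entrez 11922; chromosome 6, 55677818 to 55681263), a bHLH factor of glutamatergic cortical neurons, had 2.71, 0.433, 0.0461 and 0.225 CPM in the proliferating and 249, 58.9, 63.3 and 24.5 CPM in the differentiating libraries. Within each group library 1 was the highest, and the groups did not overlap. The log2 fold change was 6.86 ± 0.92 (edgeR adjusted p = 9.1e-06). Neurod2 (6.75), Scrt2 (6.04), Myt1l (6.03), Nhlh1 (5.74) and St18 (4.51) rose with it. Those that fell included Zeb1 (-1.82), Rest (-0.48), a repressor of neuronal genes, and Pou3f3 (-0.48). Scrt2 had at most 3 counts in proliferating libraries 2 to 4 together, so no fold is given without proliferating library 1. Neurod6, Neurod2, Myt1l, Nhlh1 and St18 came to 8.75, 8.55, 8.08, 6.46 and 6.14 on the log2 scale without proliferating library 1. Neurod6, Neurod2 and Myt1l came to 5.84, 5.77 and 4.93 on the log2 scale without differentiating library 1.

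Of 30 genes of the neuronal cytoskeleton, 26 rose and none fell, 19 by more than 2-fold, with a median of 1.89. Dcx (Entrez 13193; chromosome X, 143855842 to 143933396), the microtubule protein doublecortin of migrating neurons, had 35.6, 9.31, 9.21 and 5.31 CPM in the proliferating and 1780.1, 585, 678 and 349.7 CPM in the differentiating libraries. Tubb3, the neuronal beta tubulin, had 37.8, 12.2, 10.4 and 10.4 and 1138, 297, 451 and 162 CPM. In both genes differentiating library 1 was highest and library 4 lowest, a several-fold spread within the group, and the lowest differentiating library was still above the highest proliferating one. Dcx rose by 5.84 ± 0.71 (edgeR adjusted p = 3.5e-06) and Tubb3 by 4.86 ± 0.57 (edgeR adjusted p = 2.7e-06) on the log2 scale. Stmn2, a tubulin-binding protein of growing axons, rose by 6.05. The neurofilament gene Nefh had 1 count over the 4 proliferating libraries, 1.26% (95% counting interval 0.0315 to 7.13%) of its differentiating level. Without differentiating library 1, 2 members of this list fell, and without proliferating library 1, 1 fell. Dcx, Tubb3 and Stmn2 came to 6.74, 5.54 and 8.61 on the log2 scale without proliferating library 1. Dcx, Tubb3 and Stmn2 came to 5.18, 4.10 and 4.96 on the log2 scale without differentiating library 1.

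RNA-binding proteins of neurons, which direct alternative splicing, gave 15 higher and 2 lower of 19, with a median of 2.07. Rbfox1 rose by 6.04, Srrm3 by 4.72, Khdrbs2 by 4.58 and Celf4 by 4.47. Ptbp1, the splicing repressor of non-neuronal cells, had 305, 344, 355 and 369 CPM in the proliferating and 99.8, 142, 153 and 155 CPM in the differentiating libraries and fell by 1.32 ± 0.12 (edgeR adjusted p = 2.7e-07). The proliferating libraries all lay above the differentiating ones in Ptbp1. Only 1 of the 2 lower members kept its call when any of proliferating libraries 2, 3 or 4 or differentiating libraries 2, 3 or 4 was left out, or under RLE size factors or DESeq2. Rbfox1, Srrm3, Khdrbs2 and Celf4 came to 7.38, 6.50, 5.93 and 5.15 on the log2 scale without proliferating library 1. Rbfox1 came to 4.89 on the log2 scale without differentiating library 1.

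Markers of both main neuronal lineages of the forebrain rose. Of 18 tested glutamatergic genes, 14 rose, with a median of 3.00, and of 20 tested GABAergic genes 16 rose and none fell, with a median of 3.87. The GABAergic list mean was -0.75, -0.87 and -0.84 log2 CPM in proliferating libraries 2 to 4. Members nearly without proliferating counts passed the filter on low counts through another group and could hardly fall. The count and median of this list are therefore tilted upwards. Without proliferating library 1 these medians were 3.90 and 4.91, though the fitted values of members with few or no counts in the other 3 depend on the prior count. Tbr1, a factor of early cortical neurons, had 3.25, 0.271, 0.368 and 0.405 CPM in the proliferating and 101, 27.1, 35.5 and 4.88 CPM in the differentiating libraries (5.29 ± 0.86, edgeR adjusted p = 6e-05). Gad1, which makes GABA, had 3.49, 1.73, 1.2 and 1.44 and 62.0, 24.8, 50.7 and 11.0 CPM (4.24 ± 0.52, edgeR adjusted p = 4.1e-06). Tbr1 was highest in differentiating library 1 and lowest in library 4, while Gad1 was high in libraries 1 and 3. Eomes (4.06), a factor of intermediate progenitors, and Fezf2 (4.57) of deep cortical layers rose among glutamatergic genes. Slc17a6 (4.69), a glutamate transporter of synaptic vesicles, rose with overlapping groups. Sox5 (-0.23) and Rorb (-1.04) fell, and 1 of these calls was lost when proliferating library 2 or 3 or differentiating library 2 or 4 was left out, or under library size scaling, RLE size factors or DESeq2. Tbr1, Slc17a6, Eomes and Fezf2 came to 6.88, 6.46, 4.70 and 5.54 on the log2 scale without proliferating library 1. Tbr1, Slc17a6 and Fezf2 came to 4.38, 3.91 and 3.56 on the log2 scale without differentiating library 1.

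On the GABAergic side, the DLX homeobox factors of the ganglionic eminence rose together. Dlx1 had 3.49, 0.595, 0.599 and 0.54 CPM in the proliferating and 78.8, 38.6, 86.0 and 30.5 CPM in the differentiating libraries (5.48 ± 0.53, edgeR adjusted p = 3.2e-07), Dlx2 rose by 3.65 and Dlx5 by 6.95. Dlx6 had no count in any proliferating library and 2.18, 0.931, 2.72 and 0.539 CPM in the differentiating ones, so its level was at least 43.3-fold higher with 3 counts over the proliferating group taken as the limit. Gad2 (5.46), Slc32a1 (5.01), the GABA transporter of vesicles, Lhx6 (4.35) and Isl1 (3.93) rose too. The early patterning factors Gsx1 (0.31), Gsx2 (0.92) and Nkx2-1 (0.62) were not called. Slc32a1, Lhx6 and Isl1 had at most 3 counts each in proliferating libraries 2 to 4 together, so no fold is given without proliferating library 1. Dlx1, Dlx2 and Gad2 came to 6.65, 4.76 and 6.85 on the log2 scale without proliferating library 1. Isl1 came to 3.27 on the log2 scale without differentiating library 1.

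All 12 tested of 20 genes of neuropeptides and secretory granules rose, with a median of 3.54, though those kept by the filter on low counts were mostly kept through their differentiating level. Scg2, a granin of dense-core vesicles, had 2.18, 0.595, 0.23 and 0.135 CPM in the proliferating and 63.8, 21.4, 16.2 and 6.56 CPM in the differentiating libraries. The peptide gene Pdyn had no count in proliferating cells and was at least 21.7-fold higher in differentiating ones. Cck, another peptide gene, had 2 counts in the proliferating libraries, 1.08% (95% counting interval 0.13 to 3.95%) of the differentiating level. Sst (4.66), encoding somatostatin, had 12.4, 4.58, 23.5 and 0.21 CPM in the differentiating libraries and overlapped with proliferating library 1, at 1.6 CPM. Its call was lost when proliferating library 2, 3 or 4 or differentiating library 3 was left out. Sst had at most 3 counts in proliferating libraries 2 to 4 together, so no fold is given without proliferating library 1. Scg2 came to 6.43 on the log2 scale without proliferating library 1. Scg2 came to 4.24 on the log2 scale without differentiating library 1.

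Genes of the synapse rose in most members. Of 32 genes of the presynaptic machinery 30 rose and 1 fell, with a median of 2.18. Of 32 tested receptors of glutamate and GABA 24 rose and 3 fell, with a median of 1.96. Of 26 adhesion molecules of synapses 24 rose and none fell, with a median of 1.91. Syt4, a synaptotagmin of secretory vesicles, had 9.3, 0.704, 0.737 and 0.405 CPM in the proliferating and 996, 146, 119.5 and 36.4 CPM in the differentiating libraries. Library 1 was far above the other differentiating libraries and far above the other proliferating ones. The log2 fold change was 6.87 ± 1.09 (edgeR adjusted p = 4.9e-05). Sv2b (4.99), a vesicle glycoprotein, rose as well, and Sypl (-0.77), a synaptophysin relative of many tissues, fell. Without differentiating library 1 the presynaptic median was 1.62 with 30 higher. Syt4 and Sv2b came to 9.04 and 6.06 on the log2 scale without proliferating library 1. Syt4 came to 5.18 on the log2 scale without differentiating library 1.

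Among receptors, Grm5, a metabotropic glutamate receptor of progenitors and neurons, had 263 ± 24.8 CPM in the proliferating and 56.2 ± 48.5 CPM in the differentiating libraries (mean ± SD, n = 4). It fell by 2.23 ± 0.44 on the log2 scale (edgeR adjusted p = 0.00031), and differentiating library 1 was nearest to the proliferating group. Without that library 5 receptors fell in place of 3. Among adhesion molecules, Cntn2 (6.10), L1cam (5.99) and Cntnap2 (6.67), all of axons, rose, as did Cbln2 (4.63), a synapse organizer. Cntn2, L1cam, Cntnap2 and Cbln2 came to 8.24, 8.12, 8.58 and 6.45 on the log2 scale without proliferating library 1. Grm5 and L1cam came to -3.01 and 4.84 on the log2 scale without differentiating library 1.

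Of 30 tested voltage-gated channel genes, 20 rose and 4 fell, with a median of 1.84. The calcium channel gene Cacna1e had 1.84, 0.325, 0.461 and 0.315 CPM in the proliferating and 61.0, 13.0, 24.3 and 2.37 CPM in the differentiating libraries and rose by 5.09. Kcnj16, an inward rectifier of glia, fell from 56.5 ± 13.5 to 6.04 ± 2.46 CPM (-3.22). Of 34 axon guidance genes 24 rose and 3 fell, with a median of 1.59. The semaphorin receptor gene Plxna4 had 11.0, 12.5, 11.9 and 14.0 CPM in the proliferating and 377, 107, 92.5 and 42.9 CPM in the differentiating libraries (3.65 ± 0.55, edgeR adjusted p = 3e-05). Sema3e (4.28) and Slit3 (4.65), which are secreted guidance cues, and the netrin receptor gene Unc5d (3.70) rose, and the netrin gene Ntn4 fell by 2.58. Cacna1e and Unc5d came to 6.08 and 4.32 on the log2 scale without proliferating library 1. Cacna1e, Plxna4 and Unc5d came to 4.16, 2.70 and 3.05 on the log2 scale without differentiating library 1.

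Myelin genes rose. Of 24 tested myelin genes 22 rose and none fell, all 22 by more than 2-fold, with the highest median of the lists, 4.19. Mbp, myelin basic protein, had 195, 11.5, 13.5 and 3.38 CPM in the proliferating and 938, 1052, 2037 and 1401 CPM in the differentiating libraries. In this gene, proliferating library 1 was at least 10 times as high as each of the other 3, and differentiating library 1 was the lowest of its own. Mbp rose by 4.61 ± 0.97 (edgeR adjusted p = 0.00059) on the log2 scale. Per kilobase of gene model, the mean differentiating level was 202 RPKM for Mbp, 297 RPKM for Tubb3 and 92.7 RPKM for Dcx. Differentiating library 1 was the highest of its group for Tubb3 and Dcx and the lowest for Mbp. The place of Tubb3 above Mbp rests on that library. Without proliferating library 1 the median of the myelin list was 5.67. Without proliferating library 4, 1 member fell. Mbp came to 7.16 on the log2 scale without proliferating library 1.

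Further myelin genes behaved alike. Myrf, the transcription factor of myelinating cells, had 51.0, 6.33, 7.74 and 3.87 CPM in the proliferating and 171, 297, 379.6 and 372 CPM in the differentiating libraries (4.15). Enpp6, of newly formed oligodendrocytes, rose by 4.92. Mog, a late surface protein of myelin, had no count in the proliferating libraries and was at least 20.6-fold higher in the differentiating ones. Ermn had 1 count in the proliferating libraries, 0.743% (95% counting interval 0.0187 to 4.19%) of the differentiating level. Tspan2 (0.16) and Aspa (-1.23) were not called. Myrf and Enpp6 came to 5.67 and 7.81 on the log2 scale without proliferating library 1.

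Of 20 genes of oligodendrocyte progenitors 14 rose and 4 fell, with a median of 1.53. Sox10 (Entrez 20665; chromosome 15, 79154913 to 79164490), the factor that specifies the lineage, had 107, 31.3, 31.4 and 18.2 CPM in the proliferating and 231, 463, 524 and 589 CPM in the differentiating libraries and rose by 3.27 ± 0.48 (edgeR adjusted p = 2.2e-05). Gpr17, a receptor of committed precursors, had 231, 40.6, 44.3 and 11.5 and 422, 1210.4, 1021 and 1515 CPM (3.67). Differentiating library 1 was lowest of its group in both. C1ql1 (4.18), Neu4 (3.96), Bcas1 (3.89) and Tnr (3.89) rose too. Olig2 (-0.84), Olig1 (-0.81) and Cspg4 (-2.03), the proteoglycan NG2 of cycling progenitors, fell, so the list did not move in 1 direction. Sox10, Gpr17, C1ql1, Neu4, Bcas1 and Tnr came to 4.06, 5.02, 4.83, 5.40, 4.78 and 4.76 on the log2 scale without proliferating library 1.

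Astrocyte genes rose less. Of 27, 16 rose and 4 fell, 6 of them higher by more than 2-fold, with a median of 0.80. Apoe, the lipid carrier of astrocytes, had 225, 41.2, 36.0 and 27.8 CPM in the proliferating and 811, 1027, 1074 and 1202 CPM in the differentiating libraries (3.64 ± 0.72, edgeR adjusted p = 0.00035). Gfap, the astrocyte intermediate filament, had 69.1 CPM in proliferating library 1, 2 CPM or less in the other 3, and 61.8, 273, 512 and 358 CPM in the differentiating libraries (4.06 ± 1.23, edgeR adjusted p = 0.0078). Proliferating library 1 reached the level of differentiating library 1 in Gfap, so the groups overlapped. S100b (4.05), Clu (3.91) and the water channel gene Aqp4 (3.78) rose. The glutamate transporter gene Slc1a2 rose by 1.10, Aldh1l1 (-0.25) was not called, and Fgfr3 (-1.21) and Nfia (-0.82) fell. Slc7a10 (-1.40) was no longer called without proliferating library 1 (-0.94). Apoe, Gfap, S100b, Clu and Aqp4 came to 4.88, 8.26, 5.01, 4.73 and 5.45 on the log2 scale without proliferating library 1.

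**Figure D3:**
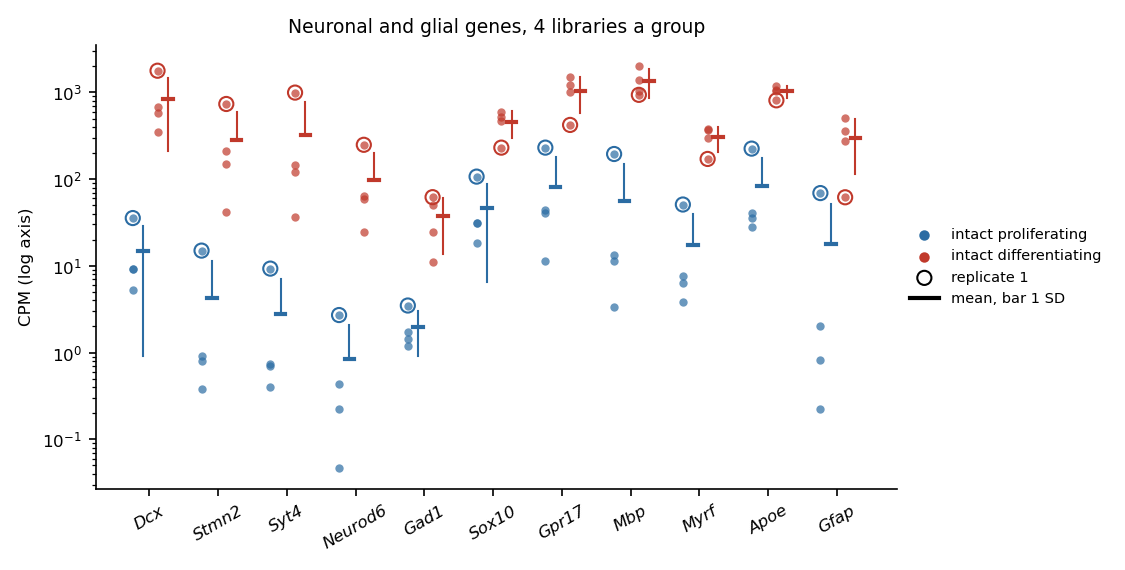
CPM on a log axis of 11 neuronal and glial genes in the 4 proliferating (blue) and 4 differentiating (red) intact libraries, with points for libraries, a ring for replicate 1, a horizontal bar for the mean and a vertical bar for 1 SD, whose lower arm is left out where it would reach 0 or less. Replicate 1 is the highest proliferating library in all 11 genes, and among the differentiating libraries it is highest in Dcx (1780.1 CPM) and lowest in Mbp (938 CPM).

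The libraries of 1 group thus differed in their mix of lineage genes. On the mean log2 CPM of the list, differentiating libraries 1 to 4 stood at 8.87, 7.80, 8.05 and 7.29 for the neuronal cytoskeleton and at 6.57, 5.37, 5.76 and 4.64 for the presynaptic machinery. Library 1 was highest and library 4 lowest in both. They stood at 5.07, 5.35, 5.77 and 5.68 for myelin and at 6.89, 7.65, 7.64 and 7.87 for oligodendrocyte progenitors, where library 1 was lowest. The GABAergic list was highest in library 3, at 3.73 beside 3.55, 2.36 and 1.47 in libraries 1, 2 and 4.

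Proliferating library 1 was nearer to the differentiating libraries in lineage genes than in cell cycle genes. As a share of the distance from the mean of proliferating libraries 2 to 4 to the mean of the differentiating libraries, it stood at 4.67% for mitosis, 24.8% for ERK feedback, 36.6% for the presynaptic machinery, 48.7% for myelin, 52.3% for oligodendrocyte progenitors and 73.3% for astrocyte genes. The part of its makeup in these results was not tested. Without that library the 32 mitosis genes and 32 replication genes were all called lower, and 22 myelin genes were called higher. The map of list means shows the same libraries list by list.

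**Figure D4:**
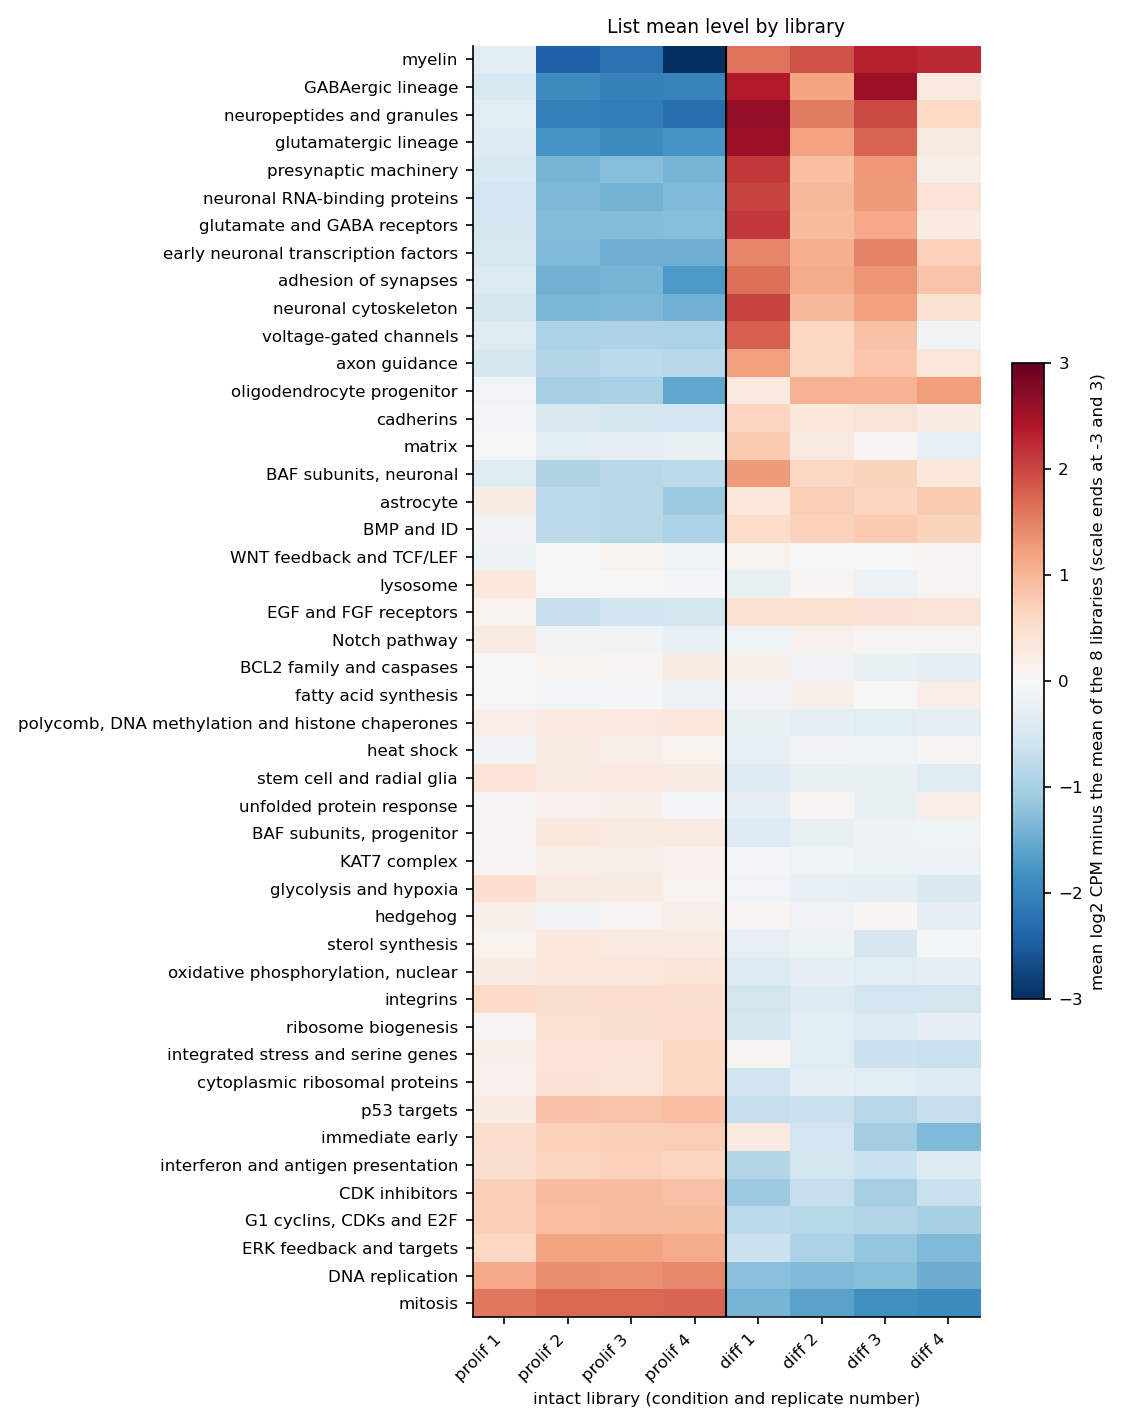
Mean log2 CPM of the tested members of 46 lists (rows, ordered by median fold change) in the 8 intact libraries (columns), as the difference from the mean of the 8 libraries, red above and blue below, on a scale that ends at -3 and 3. Proliferating library 1 (first column) is paler than the other 3 in the neuronal and glial lists, and for myelin it stands at 3.11 log2 CPM beside 1.03, 1.20 and 0.38.

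Among chromatin regulators, the subunits that neurons exchange changed in part. Of 7 BAF remodeller subunits of neurons 6 rose and 1 fell, and of 7 of progenitors 4 fell and none rose. Actl6b, encoding the neuronal subunit BAF53B, had 2.23, 0.108, 0.138 and 0.27 CPM in the proliferating and 80.0, 18.4, 26.4 and 7.31 CPM in the differentiating libraries, and its progenitor counterpart Actl6a had 109, 133, 128 and 132 and 42.9, 59.5, 63.2 and 66.1 CPM. The neuronal subunit gene spread widely with library 1 highest in both groups, while the progenitor one spread less, with library 1 lowest in both. Actl6b rose by 5.58 ± 0.82 (edgeR adjusted p = 2.2e-05) and Actl6a fell by 1.12 ± 0.13 (edgeR adjusted p = 2.1e-06). Smarca2 (1.80), a BAF ATPase, and Ss18l1 (1.76) rose, whereas Dpf3 (-1.53) fell. The progenitor subunit genes Ss18 (-0.23), Dpf2 (-0.11) and Smarca4 (-0.09) were not called. Actl6b came to 7.52 on the log2 scale without proliferating library 1. Actl6b came to 4.65 on the log2 scale without differentiating library 1.

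Of 27 genes of polycomb complexes, DNA methylation and histone chaperones 13 fell and 3 rose. The largest falls were in Uhrf1 (-3.82), Hmgb2 (-3.18) and Hells (-3.13), and the deacetylase gene Hdac11 rose by 2.02. Without proliferating library 1, and under library size scaling or RLE size factors, 5 of the list rose, and under DESeq2 or a minimum count of 50, 6 rose. Among the 10 genes of KAT7 complexes 5 fell and 1 rose, none by more than 2-fold. Besides Kat7 these were the scaffold genes Jade1 (-0.61), Jade3 (-0.84) and Brpf1 (-0.44), the reader gene Ing5 (-1.08), and Ing4 (0.87), which rose.

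Matrix and adhesion genes moved in both directions. Of 36 matrix genes 19 rose and 13 fell, and without differentiating library 1, 14 rose and 12 fell. Spp1, the secreted adhesive protein osteopontin, had 17.4, 33.9, 33.7 and 34.7 CPM in the proliferating and 0.487, 0.186, 0.117 and 0.27 CPM in the differentiating libraries. Proliferating library 1 was the lowest of its group and still far above every differentiating library. Spp1 fell by 6.74 ± 0.39 on the log2 scale (edgeR adjusted p = 1.1e-09). The basement membrane genes Lama4 (-3.34), Lama5 (-2.69), Col18a1 (-3.22) and Hspg2 (-2.46) fell, while Lama2 (3.49), Nid1 (2.30) and Col9a1 (3.85) rose. Col9a1 came to 4.54 on the log2 scale without proliferating library 1. Col18a1 came to -3.87 on the log2 scale without differentiating library 1.

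Of 14 tested integrin genes 7 fell and 2 rose. Itga4 (-6.32), whose product binds fibronectin and VCAM1, and Itga5 (-4.36), the fibronectin receptor subunit, fell, both with no overlap between groups. Itga3, a laminin receptor subunit, rose by 3.64. Without proliferating library 4, 1 integrin rose. Of 21 tested cadherins 14 rose and 4 fell, with Cdh8 (4.96) and Pcdh8 (4.35) highest and Cdh19 (-3.10), of glial precursors, lowest. Pcdh8 came to 5.44 on the log2 scale without proliferating library 1. Itga3 came to 2.67 on the log2 scale without differentiating library 1.

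Markers of cells outside the neural lineage were low. The 10 microglial markers summed to 0.217 to 0.855 CPM in the proliferating and 0.298 to 0.738 CPM in the differentiating libraries, with C1qa and C1qc at 0 and 1 of 10 high enough to test. Endothelial markers summed to 5.04 to 6.93 and 4.50 to 5.87 CPM, with Cldn5 at 0. Of the 6 tested, 1 rose and 3 fell, and 2 rose without differentiating library 4. The 6 erythroid markers summed to at most 0.436 CPM. The 10 pericyte and smooth muscle markers summed to 7.65 to 10.7 CPM in the proliferating and 29.4 to 37.7 CPM in the differentiating libraries, mostly Pdgfrb, which had 29.7, 34.4, 28.2 and 36.1 CPM in the latter, with Higd1b at 0. Acta2 (-2.93), Tagln (-2.86) and Des (-3.74) of smooth muscle fell.

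Fibroblast and meningeal markers were the clearest of these. Their 10 genes summed to 9.74 to 12.8 CPM in the proliferating and 17.6 to 161 CPM in the differentiating libraries, highest in library 1, and none was at 0. Of 6 tested 5 rose and 1 fell, with 3 higher without differentiating library 1 and none lower without proliferating library 4. Col1a1 had 3, 1.84, 1.8 and 1.85 CPM in the proliferating and 40.6, 17.9, 9.36 and 4.05 CPM in the differentiating libraries, and Col3a1 had 2.76, 3.57, 3.41 and 4.46 and 61.5, 21.8, 9.82 and 5.93 CPM. Both were highest in differentiating library 1, which was also highest on the lists of the neuronal cytoskeleton and the presynaptic machinery. Col1a1 rose by 3.08 ± 0.59 (edgeR adjusted p = 0.00027), and Col3a1, at 2.80, was not called without that library. The part of such cells in the changes of matrix genes was not tested. Col1a1 and Col3a1 came to 2.30 and 1.81 on the log2 scale without differentiating library 1.

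Markers of ependyma and choroid plexus summed to 20.8 to 24.8 CPM in the proliferating and 24.6 to 122 CPM in the differentiating libraries, with Tmem212 at 0. The upper end came from Ttr, the thyroid hormone carrier of choroid plexus, with 101, 1.15, 34.6 and 0.659 CPM. Libraries 1 and 3 held nearly all of it, and its call was lost without proliferating library 2, 3 or 4 or without differentiating library 1 (4.05). Foxj1 (-0.10), the factor of motile cilia, was not called.

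Called genes that reached 5 CPM in 1 of the groups, and whose groups did not overlap, were ranked by fold change, and the 12 highest are given first. Bhlhe22 (Entrez 59058; chromosome 3, 18054325 to 18057514), a bHLH factor of cortical and retinal neurons, led with 1.79, 0.379, 0.553 and 0.27 CPM in the proliferating and 411, 93.0, 55.5 and 26.9 CPM in the differentiating libraries (7.61 ± 0.91, edgeR adjusted p = 2.9e-06). Library 1 was the highest in each group. It was followed by Cacng2 (7.09), which carries AMPA receptors to the synapse, Dlx5, Syt4, Rit2 (6.86), a neuronal small GTPase, Neurod6, Neurod2, Nos1 (6.74), the neuronal nitric oxide synthase, Cntnap2, Dlx1as (6.50) and Rspo2 (6.40), a WNT agonist. Grm2, a metabotropic glutamate receptor, stood among them with 3 counts in the proliferating libraries, 0.616% (95% counting interval 0.127 to 1.81%) of the differentiating level. Reads of Dlx1as and of Dlx1 on the other strand cannot be told apart here, because the strandedness was not given in the sources used here. Cacng2, Nos1, Dlx1as and Rspo2 had at most 3 counts each in proliferating libraries 2 to 4 together, so no fold is given without proliferating library 1. Bhlhe22 came to 8.50 on the log2 scale without proliferating library 1. Bhlhe22, Cacng2, Rit2, Nos1 and Rspo2 came to 6.28, 6.03, 5.82, 5.26 and 5.00 on the log2 scale without differentiating library 1.

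The 12 lowest were led by Cd93 and Anxa3. Cd93 (Entrez 17064; chromosome 2, 148436651 to 148443535), a transmembrane glycoprotein best known in endothelium and myeloid cells, had 62.4, 116, 114 and 96.5 CPM in the proliferating and 0.2, 0.223, 0.194 and 0.18 CPM in the differentiating libraries. Anxa3, a calcium-dependent membrane-binding annexin, had 56.5, 56.6, 55.5 and 46.3 and 0.172, 0.149, 0.0388 and 0.21 CPM. In both the proliferating libraries stood far above the differentiating ones. Cd93 fell by 8.90 ± 0.34 (edgeR adjusted p = 1.6e-11) and Anxa3 fell by 8.46 ± 0.37 (edgeR adjusted p = 5.8e-11) on the log2 scale. Lgals1, the sugar-binding galectin 1, had 431, 556, 548 and 591 and 4.29, 5.51, 3.11 and 3.39 CPM and fell by 7.03. Of the endothelial markers, Flt1 (-3.87), Tek and Egfl7 (-1.30) fell and Kdr (1.56) rose. Esam (0.63) and Pecam1 were not called and Cldn5 was at 0. The part of such cells in the fall of Cd93 was not tested. Without proliferating library 4, Tek was at -2.30 and not called.

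The others were the ligand genes Angpt2 (-7.91), Dhh (-7.59), encoding desert hedgehog, Apln (-6.22), Adm (-6.33) and Gdf15 (-6.19), with Spp1, Itga4, the NKG2D ligand gene Raet1d (-6.75) and the protease gene Adamts14 (-6.18). Adm, encoding adrenomedullin, had 11.2, 23.1, 23.3 and 21.4 CPM in the proliferating and 0.258, 0.447, 0.117 and 0.15 CPM in the differentiating libraries. Proliferating library 1 was the lowest of its group and the groups did not overlap. Gdf15, a stress-induced cytokine, had 4.36, 12.4, 14.2 and 10.9 and 0.229, 0.112, 0.0777 and 0.12 CPM. Raet1d belongs to a family of near-identical genes, so its reads are uncertain.

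Differentiating null cells gave the response to set beside this one. The null response minus the intact response passed the test with a higher value in 1935 genes (12.7%) and a lower one in 1507 (9.93%). In either direction 3442 genes passed, 4032 without intact proliferating library 1, 3655 without intact differentiating library 1 and 4592 without both. The differences given below for lists and single genes come from the fit with all 16 libraries. Among mitosis genes 28 of 32 had a higher value and none a lower one, with a median of 0.81, and among replication genes 25 of 32 and none, with a median of 0.69, so the fall in intact cells was the deeper one in these. Cdk1 went from 272 ± 28.3 to 30.3 ± 2.15 CPM (mean ± SD, n = 4) in null cells, a difference between responses of 0.75 ± 0.17 (edgeR adjusted p = 0.0047). Egfr went from 526 ± 31.6 to 330.0 ± 14.2 CPM in null cells (2.10 ± 0.17, edgeR adjusted p = 3.9e-06). The difference between responses was above 0 and passed the test in Cd44 (2.04), Nkd1 (3.41) and Eda2r (2.42) too. Cd44 and Eda2r had lower means in differentiating than in proliferating null cells, whereas Nkd1 had 24.4 ± 5.49 CPM in proliferating and 57.7 ± 15.5 CPM in differentiating null cells.

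In sterol synthesis the null response minus the intact response was negative and passed the test in 15 of 23 genes. None passed with a positive difference, and the median was -0.50. In the unfolded protein response 10 of 16 passed with a negative difference and none with a positive one, with a median of -0.58. Of the 24 tested myelin genes 1 passed with a positive and 5 with a negative difference. Of 32 presynaptic genes 2 passed with a positive and 8 with a negative difference. These are differences between responses and not between levels. Met, which rose in intact cells, went from 0.319 ± 0.221 to 0.582 ± 0.472 CPM in null cells (-4.98 ± 1.49, edgeR adjusted p = 0.026). For Dcx (2.80 ± 0.98, edgeR adjusted p = 0.052) the difference between responses did not pass the test, which leaves a difference of this size possible.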

How the data were processed

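Polyadenylated RNA of 16 libraries was sequenced as paired 75-base reads, and the authors deposited 1 file of raw counts per gene for each library, keyed by Entrez identifier. The tools bcl2fastq and featureCounts and the genome build mm10 are named, with no further detail, per the submitters' processing notes. The aligner, the gene annotation, the strandedness and all versions were not given in the sources used here. The combined table of the series was not used here.

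Of 27179 identifiers, 25275 matched RefSeq's GRCm38.p6 table, which also gave gene positions and promoters. The counts were fitted with edgeR 4.0.16 under R 4.3.3. The function filterByExpr kept genes at a minimum count of 10, which left 15177, libraries were scaled by TMM, and 1 mean per group was fitted over all 16 libraries, so that the groups shared 1 estimate of spread. The quasi-likelihood F test was used with Benjamini-Hochberg adjustment, and a gene was called at an adjusted p under 0.05. Standard errors are the unshrunken log2 estimate divided by the square root of F. CPM values use TMM-scaled library sizes, list means are of log2 CPM with a prior count of 2, and RPKM values divide CPM by the deposited gene length. Counts over 2-fold come from a test against that minimum. The fits were also run on simulated data in which few genes changed and no library stood apart. In these data 72.0% of the tested genes were called, so that run does not cover this setting. Libraries of 18694992 counts and more leave little counting error except in genes under about 1 CPM, and intervals for genes with 3 counts or fewer cover counting error only.

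The members and the 52 lists (1085 genes, 1020 tested, 1 entry unmatched) were chosen with earlier results of these data known. Genes were named by rule: Kat7, the 12 highest and 12 lowest fold changes among called genes that reached a mean of 5 CPM without overlap (without Xist, Y-linked genes, pseudogenes or predicted genes), and up to 4 called members of each list with the largest changes, plus 1 in the other direction. Other members named were added with their values, and some genes that the rule names are not reported here. Alternatives were library size scaling, RLE size factors, DESeq2 1.42.0, limma 3.58.1 with voom, no filter and a minimum count of 50, a 2-fold minimum, only the 8 intact libraries, a replicate block, each library left out, and both libraries numbered 1 left out. Summing proliferating libraries 2 and 3 was chosen after seeing the data.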

Additional observations from a re-analysis of the deposited data

Results flagged for a closer look

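Of 152 groups of 4 libraries tested for a library apart from the other 3, 35 had one, where chance gives about 1 in 20. Among proliferating libraries, replicate 1 was the lowest in mean log2 CPM of the mitosis list at 7.23, of ribosome biogenesis at 6.31, of ERK feedback at 4.71, of p53 targets at 5.15 and of interferon genes at 2.42. It was the highest in EGF and FGF receptors at 5.59, BMP and ID genes at 4.01, the neuronal cytoskeleton at 6.31, early neuronal transcription factors at 3.28, neuronal RNA-binding proteins at 4.42 and the presynaptic machinery at 4.01. The same library was highest in glutamate and GABA receptors at 2.50, voltage-gated channels at 3.15, glutamatergic genes at 2.58, GABAergic genes at 0.69 and neuropeptides at 1.73. In the differentiating group, 1 library stood apart as the lowest in p53 targets at 4.10 and 1 in erythroid genes at -3.82.

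In single genes, the highest proliferating library, again replicate 1, had 0.194 CPM of Cacng2, 9.3 CPM of Syt4, 2.71 CPM of Neurod6, 2.86 CPM of Neurod2, 1.79 CPM of Cntnap2, 0.436 CPM of Dlx1as and 0.339 CPM of Rspo2. Replicate 1 was also the highest differentiating library, with 18.2 CPM of Cacng2, 996 CPM of Syt4, 15.4 CPM of Grm2, 20.0 CPM of Nos1 and 27.2 CPM of Rspo2. The lowest proliferating library had 18.3 CPM of Angpt2, 17.4 CPM of Spp1, 11.2 CPM of Adm and 36.5 CPM of Apln, each in replicate 1, and 46.3 CPM of Anxa3 in replicate 4.

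The response of null cells differed from that of intact cells, by a test of the difference itself, in 5 of the 24 ranked genes. Over all 15177 tested genes, 12.7% passed with a higher value and 9.93% with a lower one. The ranking used the intact fold change, which is part of the difference tested, so the count depends on that choice. The null response minus the intact response was -3.49 on the log2 scale for Cntnap2, 2.76 for Dhh, 2.18 for Lgals1, 3.85 for Adm and -1.41 for Adamts14.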

How the results depend on the processing

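No called value of a named gene changed sign under any alternative, and no gene called in 1 direction was called in the other. List medians near 0 did change sign, from 0.06 to -0.01 for the Notch pathway without proliferating library 1 and from 0.02 to -0.07 for ependyma and choroid plexus without differentiating library 1. A 2-fold minimum lowered the counts to 1985 higher, 1362 lower and 288 whose response differed between null and intact cells, from 5566, 5360 and 3442, as a stricter test must. Other settings left them within 1.5 times: DESeq2 gave 5938 higher and 5086 lower, limma with voom 5415 and 5374, library size scaling 6020 and 4876, the 8 intact libraries alone 5132 and 4967, no filter 5990 and 5403, and a minimum count of 50 gave 5308 and 4588. Leaving out 1 library gave 5279 to 5824 higher, 5148 to 5454 lower and 2834 to 4032 that differed in response. With proliferating libraries 2 and 3 summed, an alternative chosen after seeing the data, the counts were 5261, 5282 and 2878. Library size scaling moved the median of all genes by 0.073 on the log2 scale. Of the values for single genes and list counts, 6056 kept their direction and call or size, 133 moved and 86 lost the call.

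The replicate numbers were not taken to pair the libraries. Residual correlations of same-numbered libraries were 0.126, 0.123, -0.231 and 0.117, and no library correlated best with its own number. With a replicate block the counts were 5329 higher, 5268 lower and 2925 that differed in response. The calls of Sst and Slc7a10 were lost when single libraries were left out, and the cause was not tested. Depth limits genes with 3 counts or fewer in a group, for which counting intervals or lower bounds were given.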
